A study of Mus musculus with 43 samples.

Results

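Accessible chromatin that lies inside genes but away from their starts was compared between enriched and standard housing in neurons of the mouse frontal cortex. A gene-body region is here an autosomal region of an ATAC-seq count table that is narrower than 3000 bases, lies more than 1 kb (1000 bases) from every gene start and overlaps at least 1 gene span. These criteria use position and width only. They kept 95583 of the 165184 regions of the female table (57.9%) and 105571 of the 192919 regions of the male table (54.7%). Of the remaining female and male regions, 20989 and 16808 lay within 1 kb of a start, 43751 and 56485 lay outside genes, and 1556 and 9769 were at least 3000 bases wide.

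The mice were wildtype Swiss Webster animals of both sexes, kept in normal cages until weaning at postnatal day 25 and studied at 2 months. Enriched housing (EE) was a larger cage with bedding, nestlets, paper nesting, a running wheel, a plastic tube and changing toys; standard housing (SH) was a smaller cage with bedding and 1 nestlet. Nuclei of the dissected and lightly fixed frontal cortex were sorted for NeuN, a protein of neuronal nuclei. ATAC libraries numbered 3 EE and 3 SH for females and 6 EE and 7 SH for males, and nuclear RNA libraries numbered 6 EE and 6 SH for each sex. The labels do not state that each library came from a separate animal, so the p-values measure the spread between libraries, which may be technical. Female and male libraries were run under different run names, and the effects of sex and of run cannot be told apart. In the RNA the summed excitatory neuron markers reached 40.3 to 49.1 CPM per kb of gene in female and 45.0 to 56.5 in male libraries, against 8.96 to 22.0 and 7.63 to 11.3 for astrocyte markers.

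ATAC-seq inserts sequencing adapters wherever DNA is not wrapped tightly in nucleosomes, so a peak marks open chromatin. Open regions inside genes are known to include enhancers, which act on promoters at a distance, and the starts of shorter transcripts. In neurons many enhancers that respond to synaptic activity lie in introns. Ntrk2, the gene to which several results return, encodes TrkB, the receptor through which the neurotrophin BDNF supports synapses.

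Some gene-body regions hold a transcript start of their own. Of the RefSeq start windows of the GRCm38.p6 assembly, which shares its coordinates with the mm10 build of the files, 902 fell wholly inside 796 female gene-body regions (0.833%), and 1054 fell inside 934 male ones. The 4 windows printed here show what such regions contain. They belong to RefSeq starts of Bdnf, the ligand of TrkB, and of Homer1, a postsynaptic scaffold gene, and to a gene that lies within Ntrk2. The Bdnf and Homer1 starts lie downstream of the gene starts used here. Each window gives the 250 bases before the start, 5′ to 3′ on the gene's strand. Capitals mark the cAMP response core TGACG or its reverse complement.

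Bdnf, chr2:109692186-109692435, plus strand: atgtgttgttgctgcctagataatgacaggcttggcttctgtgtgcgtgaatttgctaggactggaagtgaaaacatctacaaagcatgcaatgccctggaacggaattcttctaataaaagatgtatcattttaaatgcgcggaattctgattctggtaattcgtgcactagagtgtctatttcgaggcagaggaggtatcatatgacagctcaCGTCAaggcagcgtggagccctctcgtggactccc
Bdnf, chr2:109694159-109694408, plus strand: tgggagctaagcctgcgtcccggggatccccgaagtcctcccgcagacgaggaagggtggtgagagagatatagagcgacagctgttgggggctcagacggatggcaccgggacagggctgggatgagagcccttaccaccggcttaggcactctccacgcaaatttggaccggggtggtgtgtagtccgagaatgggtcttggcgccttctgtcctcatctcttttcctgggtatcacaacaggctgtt
Homer1, chr13:93303507-93303756, plus strand: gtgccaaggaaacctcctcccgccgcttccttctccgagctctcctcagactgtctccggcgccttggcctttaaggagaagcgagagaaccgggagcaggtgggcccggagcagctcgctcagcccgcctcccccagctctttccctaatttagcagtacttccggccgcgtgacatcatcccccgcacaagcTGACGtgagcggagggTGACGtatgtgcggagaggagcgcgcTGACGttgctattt
Gm53063, chr13:59073715-59073964, minus strand: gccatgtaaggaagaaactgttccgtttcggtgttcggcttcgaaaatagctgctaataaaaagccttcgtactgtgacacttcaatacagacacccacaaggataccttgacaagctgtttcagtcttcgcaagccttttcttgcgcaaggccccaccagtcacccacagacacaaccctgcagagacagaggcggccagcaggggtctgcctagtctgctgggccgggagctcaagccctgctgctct

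The core TGACG, searched on both strands, occurred at 1 position before the first Bdnf start and at 3 positions before the Homer1 start, and not in the other windows. It was present in 17.8% of all 32851 RefSeq windows of 250 bases. The whole palindrome TGACGTCA (1.55% of windows), which contains the core, the AP-1 motif TGANTCA (6.75%) and the E-box CACGTG (6.02%) did not occur in the 4 windows. A match is a description of the letters only.

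Levels are CPM, counts scaled to a common library size with factors from the trimmed mean of M-values (TMM), and fold changes are log2 of EE over SH, so that a positive value is higher in EE. The region with the first Bdnf start stood at 15, 18.9 and 12.7 CPM in the 3 EE libraries and 17.5, 19.7 and 16.7 in the 3 SH libraries of the females. Its log2 fold change was -0.21 ± 0.13 (SE), and the groups overlapped. The Homer1 start region stood at 72.2, 66.6 and 70.0 CPM in EE and 69.2, 75.5 and 80.5 in SH, with a log2 fold change of -0.11 ± 0.09. The Gm53063 region stood at 52.5, 55.1 and 51.0 CPM in EE and 52.2, 63.5 and 64.4 in SH, and differed by -0.18 ± 0.10. None of these reached an adjusted p under 0.05 in edgeR's quasi-likelihood test. Over all 796 female regions with such a window the median level was 11.1 CPM per kb of region, against 6.98 in gene-body regions without one, and 0 were called. In the male table the same medians were 4.86 and 2.86 CPM per kb, and 0 were called.

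Gene-body regions were narrow and spread over the whole length of genes. The median width was 415 bases in the female and 770 bases in the male table (middle 50%: 257 to 689 and 490 to 1213). The median distance to the nearest start was 19316 bases in the female table and 22324 in the male, and 81.3% and 85.7% of the regions lay more than 5 kb away. In hosts that span at least 50 kb, 10 equal sections of the gene from start to end held between 9.60% and 11.1% of the female regions each, with the largest share in the last section. The male range was 9.61% to 10.7%, again with the largest share in the last section.

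The host genes numbered 14726 in the female and 15637 in the male table, of 49158 autosomal genes. A host held a median of 3 regions in each table. A single region was found in 32.0% of female and 33.2% of male hosts, whereas 73 and 85 hosts with more than 100 regions each held 11.5% and 12.2% of all gene-body regions. Protein-coding hosts held 92.2% and 91.5%. In the female table the largest host was Gm20388, a predicted gene, with 615 regions, followed by the RNA-binding protein gene Celf2 with 368, Phactr1 with 310, the synaptic vesicle calcium sensor gene Syt1 with 307 and the axon scaffold gene Ank3 with 259. In the male table Gm20388 with 445 was followed by the receptor phosphatase gene Ptprd with 391 and the adhesion gene Cadm2 with 352.

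Hosts with more RNA held more regions. Protein-coding genes spanning at least 10 kb were ranked by their nuclear RNA level per kb of gene and divided into 5 equal groups. The lowest group had 3.42 female gene-body regions per 100 kb of gene and 42.9% of its genes held any, and the highest group had 16.4 per 100 kb and 90.1% of its genes held any. The male values were 4.15 per 100 kb and 52.7% in the lowest group against 16.5 per 100 kb and 89.8% in the highest. Median spans also increased between these groups, from 24.5 to 44.1 kb in the female and from 25.1 to 41.1 kb in the male ranking.

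The regions were less accessible per base than those near starts. The median SH level was 7.00 CPM per kb of region in female gene-body regions, 9.48 in regions within 1 kb of a start and 7.61 outside genes. The male medians were 2.87, 4.48 and 3.38. Regions on either side of the 1 kb limit had close medians: those 1000 to 1500 bases from a start had a median of 6.77 CPM per kb against 7.02 at 500 to 1000 bases in females, and 2.88 against 3.07 in males. At the width limit, regions from 2500 to under 3000 bases had a median of 9.37 and those of 3000 to 3500 bases 9.16 CPM per kb in females, and 3.99 and 3.93 in males. The median region had 64 counts per library in the female and 97 in the male table, and the median standard error of its log2 fold change was 0.25 and 0.14.

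Library totals ran from 19075368 to 26257066 counts in the female and from 27665194 to 73835546 in the male table. Gene-body regions took 41.79%, 41.62% and 41.74% of all counts in the 3 female EE libraries and 42.42%, 40.78% and 42.15% in the 3 SH libraries. The SH libraries spread on both sides of the EE libraries, and the difference of the means was -0.0652 percentage points (exact permutation p = 1). In males the share was 35.36% ± 0.14 (SD, n = 6) in EE and 35.20% ± 0.44 (SD, n = 7) in SH, a difference of 0.159 points (exact two-sided permutation p = 0.425). The log2 ratio of gene-body counts to counts near starts was 0.669 ± 0.019 and 0.629 ± 0.090 in females (SD, n = 3 each, exact permutation p = 0.6) and 1.218 ± 0.058 and 1.196 ± 0.027 in males (SD, n = 6 and 7, exact permutation p = 0.390). Adjusted over these 4 comparisons the p-values were 1, 0.8, 0.8 and 0.8, and with 3 libraries against 3 no exact two-sided p below 0.1 is possible.

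**Figure D1:**
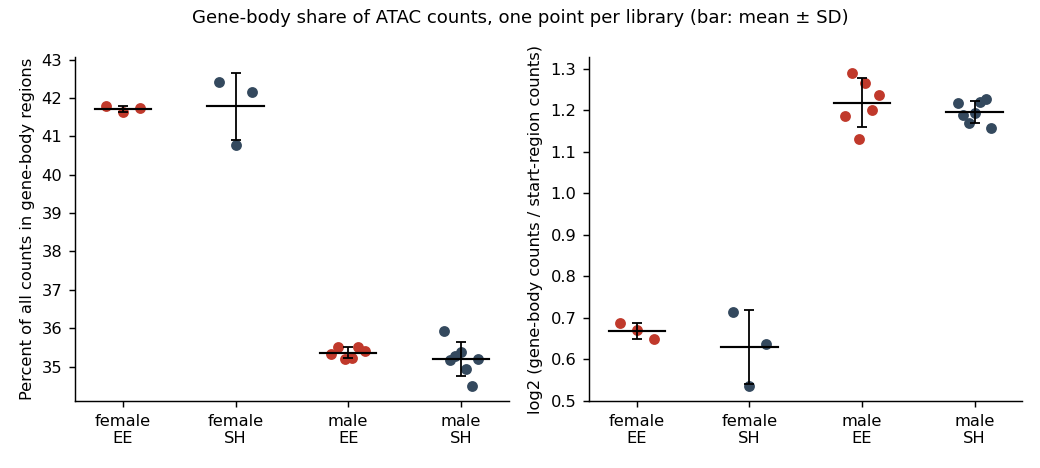
Left, percent of each library's counts in gene-body regions; right, log2 ratio of gene-body counts to counts in regions within 1 kb of a start. Each point is a library and bars are the mean ± SD; the EE and SH points overlap in both tables, and 1 SH library is the lowest of the 6 female libraries in both panels at 40.78% and 0.536.

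In the female table single gene-body regions differed between housing groups in both directions. Of 95510 gene-body regions tested, 25 were called at an adjusted p under 0.05, 13 higher and 12 lower in EE (edgeR's quasi-likelihood test, Benjamini-Hochberg adjustment over all regions of the table). Over all 164926 regions 0.0473% were called, 0.0346% higher and 0.0127% lower, and among the 69416 that were no gene-body regions 0.0764% (53 regions, of which 46 lay outside genes and 1 near a start). An unadjusted p under 0.05 was found for 6935 gene-body regions (7.26%, against 8.01% of all regions), 3114 higher and 3821 lower, where 4.53% and 3.48% of all regions were. The median log2 fold change was -0.03 over gene-body regions, -0.06 near starts and 0.07 outside genes. When 1 library was left out, 7 of the 25 remained called for EE replicate 2, 6 for EE replicate 3, 9 for SH replicate 2, 12 for SH replicate 3, 19 for SH replicate 1 and 22 for EE replicate 1, and all 25 kept their direction. Those in Ranbp3l and Sox2ot were called in all 6 refits that left out 1 library.

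Called regions higher in EE had a median width of 528 bases and a median of 4.74 CPM. They were narrower and of lower level than the called regions lower in EE. Over all female gene-body regions the median width was 415 bases and the median SH level 2.72 CPM. The largest rise was in Sox2ot, a long noncoding RNA gene that surrounds the stem cell factor gene Sox2, at chr3:34470670-34470948, 366.5 kb into the gene. It stood at 2.82, 3.48 and 3.13 CPM in EE against 0.834, 0.592 and 0.960 in SH, from 67, 90 and 83 counts against 20, 11 and 22. The EE libraries all lay above the SH libraries, with a log2 fold change of 1.96 ± 0.30 (adjusted p = 0.000265). In Hecw2, a ubiquitin ligase gene, chr1:54106453-54107353 stood at 9.61, 11.8 and 12.1 CPM in EE and 5.79, 6.03 and 5.89 in SH. It rose by 0.92 ± 0.16 (adjusted p = 0.00281), and the 3 SH libraries were nearly equal. In Zfp804a, a zinc finger gene, chr2:82227595-82227863 stood at 2.70, 3.75 and 2.90 CPM in EE and 1.13, 0.969 and 0.873 in SH, with a log2 fold change of 1.65 ± 0.29 (adjusted p = 0.00328).

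A region of Zfp804b, the paralogue of Zfp804a on chromosome 5, also rose, by 1.13 ± 0.20 (adjusted p = 0.00393). It lay 473.7 kb from the gene's start. Parp8, an ADP-ribosyltransferase family gene, held a region at 4.64, 4.45 and 3.73 CPM in EE and 1.75, 1.78 and 1.44 in SH, a rise of 1.37 ± 0.24 (adjusted p = 0.00393). Regions of the teneurin adhesion gene Tenm2, of Gm40646 and of the overlapping genes Gm20388 and Def8 rose by 1.68, 0.79 and 1.71, with adjusted p of 0.0168, 0.0165 and 0.0199. The Tenm2 region rested on 33, 15 and 7 SH counts. The other 5 regions that rose lay in Them7, Fam172a, Ltbp1, Kcnt2 and Galntl6 and are named here because they complete the called set. The Fam172a region was the most even of them, at 19.5, 19.5 and 19.8 CPM in EE against 13, 13 and 12.7 in SH.

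Called regions lower in EE were wider and of higher level, with a median width of 1517 bases and a median of 12.9 CPM. The largest fall was in Ranbp3l, a gene of the Ran-binding protein family, at chr15:9015717-9016296, a region of low level. It stood at 1.35, 0.619 and 1.17 CPM in EE and 5.00, 3.82 and 4.71 in SH, from 32, 16 and 31 against 120, 71 and 108 counts. Its log2 fold change was -2.11 ± 0.27 (adjusted p = 1.76e-06), the smallest p of any gene-body region. Lncpint, a long noncoding RNA gene induced by p53, held 2 regions that fell. The one at chr6:31104347-31105514, which also overlaps Gm13833, stood at 5.27, 5.65 and 4.75 CPM in EE and 9.30, 11.6 and 9.86 in SH (-0.97 ± 0.17, adjusted p = 0.00263). The other, at chr6:31096113-31097885, fell by 0.66 (adjusted p = 0.0219).

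Bhlhe40, a transcriptional repressor in the feedback of the circadian clock, held a region at chr6:108666831-108669197 that overlaps the end of the gene and runs past it. It stood at 17, 16.4 and 17.7 CPM in EE and 25.1, 29.2 and 25.4 in SH, a fall of 0.64 ± 0.12 (adjusted p = 0.00447). Rgs9, a regulator of G protein signalling, Rap1gap, which switches off the small GTPase Rap1, and Galnt9, an enzyme of mucin-type glycosylation, held regions that fell by 0.78, 0.76 and 0.58 (adjusted p = 0.00328, 0.0082 and 0.0141). The groups did not overlap in any of these, which were selected by their p in the same libraries. Of the remaining regions that fell, outside the rule by which genes were named, 1 lay in Homer1 at 14.4, 11.3 and 11.8 CPM in EE and 16, 22 and 19.2 in SH (-0.61 ± 0.13, adjusted p = 0.0354). The others lay in Gm7972, in the overlapping genes Wipf3 and Scrn1, and in Ntrk2.

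**Figure D2:**
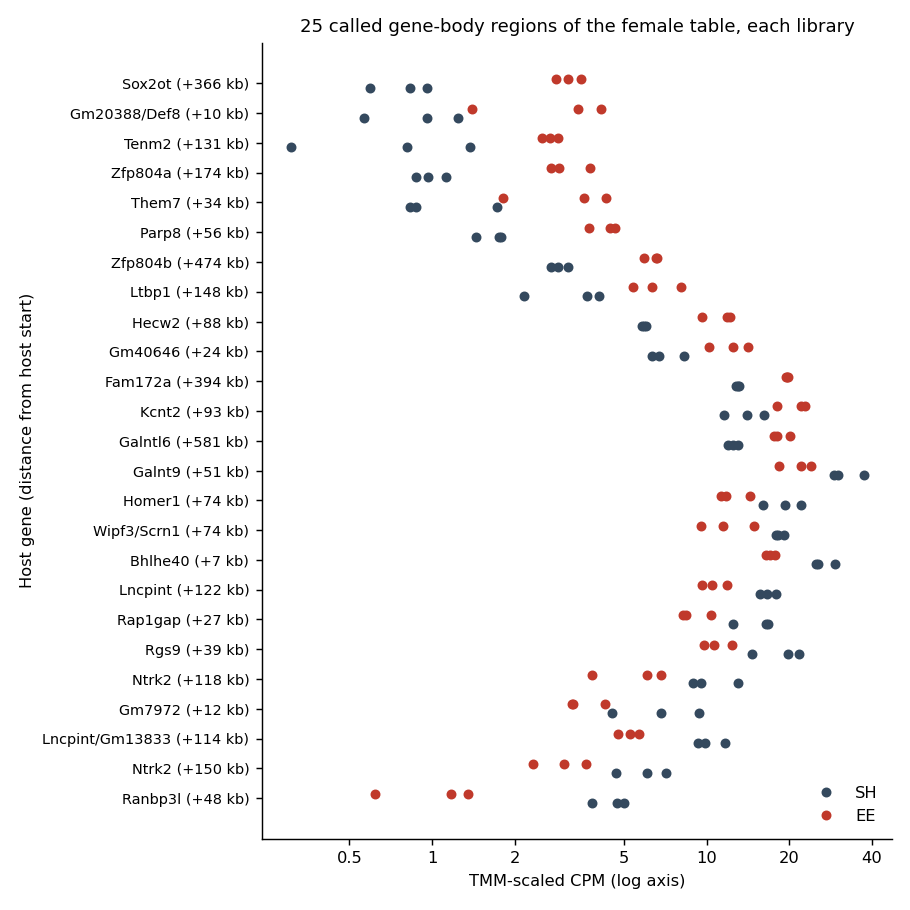
TMM-scaled CPM (log axis) of the 25 called gene-body regions in each of the 3 EE and 3 SH female libraries, ordered by log2 fold change, with the host gene and the distance from its start. The EE and SH points do not overlap in any row, but the rows were selected by their p in these same libraries. The share of all tested regions without overlap was not counted. The rows that rose sit mostly below 10 CPM.

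None of the 5 regions of highest mean level was called. The female region with the highest mean level lay in Gm33838, with 341, 179 and 185 CPM in EE and 300, 220 and 187 in SH, and its log2 fold change was 0.00 ± 0.36. Chl1, a neural adhesion gene, held the next at 136, 82.4 and 78.2 CPM in EE and 111, 129 and 74.5 in SH (-0.08 ± 0.34). Libraries of each group spread widely in both. Rbpj, the DNA-binding partner of Notch, and Aktip held regions with less spread, with log2 fold changes of -0.05 ± 0.09 and -0.09 ± 0.09.

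Summing the gene-body regions of each gene gave counts with less sampling error. Of 14711 female gene sums 16 were called (0.109%), 7 higher and 9 lower in EE, and 1474 (10%) had an unadjusted p under 0.05. The genes that rose held 2 to 18 regions and those that fell 1 to 114. Each call was lost when at least 1 library was left out: 0 of the 16 remained for SH replicate 2, 3 for EE replicate 3, 4 for EE replicate 2, 8 for SH replicate 3, 13 for EE replicate 1 and 16 for SH replicate 1.

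The gene sums that fell included Lncpint, with 59 regions, at 349, 337 and 327 CPM in EE and 410, 446 and 465 in SH (-0.38 ± 0.06, adjusted p = 0.0021). Cmip, which encodes the c-Maf inducing protein, summed to 454, 457 and 479 CPM over 107 regions in EE and 575, 592 and 605 in SH (-0.35 ± 0.06, adjusted p = 0.0021). The groups lay far apart in both genes, and both calls were lost only without SH replicate 2, at an adjusted p of 0.0581. Ntrk2 summed to 448, 391 and 423 CPM over 114 regions in EE and 506, 554 and 515 in SH (-0.32 ± 0.06, adjusted p = 0.0107). Mical2, an actin-oxidizing enzyme gene, fell by 0.31 ± 0.06 over 62 regions (253, 228 and 257 CPM against 291, 308 and 317, adjusted p = 0.0241).

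Among hosts with fewer regions, Bhlhe40 fell by 0.52 ± 0.09 over 5 regions, from 48.2, 53.2 and 49.4 CPM in SH to 35.8, 35.2 and 34.2 in EE (adjusted p = 0.00525). Galnt9 fell by 0.40 over 16 regions (adjusted p = 0.00893), Sgsm1, a modulator of small G proteins, by 0.40 over 24 (adjusted p = 0.0107), and Ago2, the Argonaute protein of RNA silencing, by 0.38 over 21 (adjusted p = 0.0143). All 24 Sgsm1 regions had a negative log2 fold change. Gm13833 fell through the single region that it shares with Lncpint.

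The gene sums that rose belonged to the integrin gene Itgb8, the mitochondrial carrier gene Slc25a21, the engulfment adaptor gene Gulp1, the glutarate CoA-transferase gene Sugct and the monocarboxylate transporter gene Slc5a12, and to Gm40646 and Gm29687. Itgb8 summed to 26.3, 26.3 and 25.9 CPM over 2 regions in EE and 19.5, 16.2 and 14.6 in SH (0.64 ± 0.12, adjusted p = 0.00778). Slc25a21 summed to 46.7, 44.4 and 38.3 CPM in EE and 33.4, 30.3 and 23.4 in SH over 10 regions (0.57 ± 0.11, adjusted p = 0.014). The other log2 fold changes were 0.73 for Gulp1, 0.70 for Slc5a12, 0.39 for Sugct, 0.74 for Gm40646 and 0.39 for Gm29687. The 10 genes with the most female gene-body regions had log2 fold changes from -0.12 in Gm20388 to -2.19e-05 in Syt1, and none was called.

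Within some genes nearly all regions leaned the same way. Among the 1098 hosts with at least 20 tested female regions, 132 had at least 80% of them lower and 57 had at least 80% higher in EE, beside a median of -0.04 over the hosts' medians. The lowest medians belonged to Sgsm1 (-0.45) and Ntrk2 (-0.41, 102 of 114 regions lower). In Cmip 99 of 107, in Lncpint 58 of 59, in Homer1 64 of 70 and in Mical2 56 of 62 regions were lower. The Homer1 sum itself was not called (-0.32 ± 0.08, adjusted p = 0.118). In males 39 of 1219 such hosts had at least 80% lower and 30 at least 80% higher.

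When the regions were summed in fixed bins of 50 kb instead of genes, a grouping chosen after the data were seen, 39 of 21180 female bins were called (0.184%), 17 higher and 22 lower, beside 2319 (10.9%) at an unadjusted p under 0.05, and 0 of 23722 male bins, of which 873 (3.68%) had an unadjusted p under 0.05. The female bins that fell included 3 consecutive ones over Cmip and 3 consecutive ones over Lncpint.

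In Ntrk2 regions over a long stretch had lower values in EE in both tables, in part at different positions, and the calls were 2 female regions and the female sum. The gene spans chr13:58806569-59133970 on the plus strand. In females 41 of its 114 gene-body regions (36.0%) had an unadjusted p under 0.05 with a lower level in EE and 0 with a higher one, where 3.48% of all female regions were lower at that p. In the male table these were 33 of 116 (28.4%) lower and 3 higher, where 1.92% of all male regions were lower and 2.62% higher. Neighbouring regions share libraries and a locus and are not independent. By the share of regions lower at that p, Ntrk2 ranked 4 of 1098 hosts in the female and 2 of 1219 in the male table.

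The lower female values lay 40 to 160 kb from the start. From 40 to 80 kb the median log2 fold change was -0.52, but the groups overlapped. The sums there were 68.9, 53.9 and 55.5 CPM in EE against 62.0, 76.3 and 89.0 in SH. From 80 to 120 kb all 19 regions were lower in EE, with a median log2 fold change of -0.66, and their summed level was 56.6, 42.9 and 51.8 CPM in EE against 69.4, 89.1 and 72.6 in SH. From 120 to 160 kb all 23 were lower with a median of -0.69, and the sums were 83.9, 67.4 and 74.8 CPM in EE against 117, 120 and 84.1 in SH. The groups did not overlap in the windows from 80 to 120 and from 120 to 160 kb, but EE replicate 1 (83.9) and SH replicate 3 (84.1) were nearly equal in the latter. Both windows were picked for their low values in these same libraries. The share of all such windows without overlap was not counted. The median weakened to -0.25 from 160 to 200 kb. The called regions were chr13:58924175-58925901, at 6.83, 3.83 and 6.07 CPM in EE and 9.51, 13 and 8.90 in SH (-0.90 ± 0.18, adjusted p = 0.0199), and chr13:58956372-58957119, at 3.63, 2.32 and 3.02 CPM against 7.13, 6.08 and 4.67 (-0.999 ± 0.21, adjusted p = 0.0288). Both calls, and that of the gene sum, were lost when EE replicate 2 or 3 or SH replicate 2 was left out, and that of the latter region also for SH replicate 1.

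The lower male values lay further into the gene, from 120 to 240 kb, with the lowest median from 160 to 200 kb. From 120 to 160 kb the groups overlapped, at 37.4 to 47.2 CPM in EE and 30.2 to 69.3 in SH. SH replicates 1, 2 and 3 were the highest there, at 69.3, 64.7 and 62.6 CPM. From 200 to 240 kb the groups also overlapped, at 35.9 to 45.0 CPM in EE and 40.1 to 57.0 in SH. Between 160 and 200 kb all 23 regions were lower in EE, 21 of them at an unadjusted p under 0.05, with a median log2 fold change of -0.60. Their summed level ran from 34.2 over a median of 41.7 to 48.0 CPM in the 6 EE libraries and from 46.9 over 62.7 to 70.8 in the 7 SH libraries. The groups overlapped only in that EE replicate 3 (48.0) exceeded SH replicates 4 (47.4) and 6 (46.9). Between 80 and 120 kb, within the female stretch, 1 of 15 male regions was lower, and the median was 0.09. A further 9 male regions of Ntrk2, the start region among them, were at least 3000 bases wide and were therefore not gene-body regions.

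**Figure D3:**
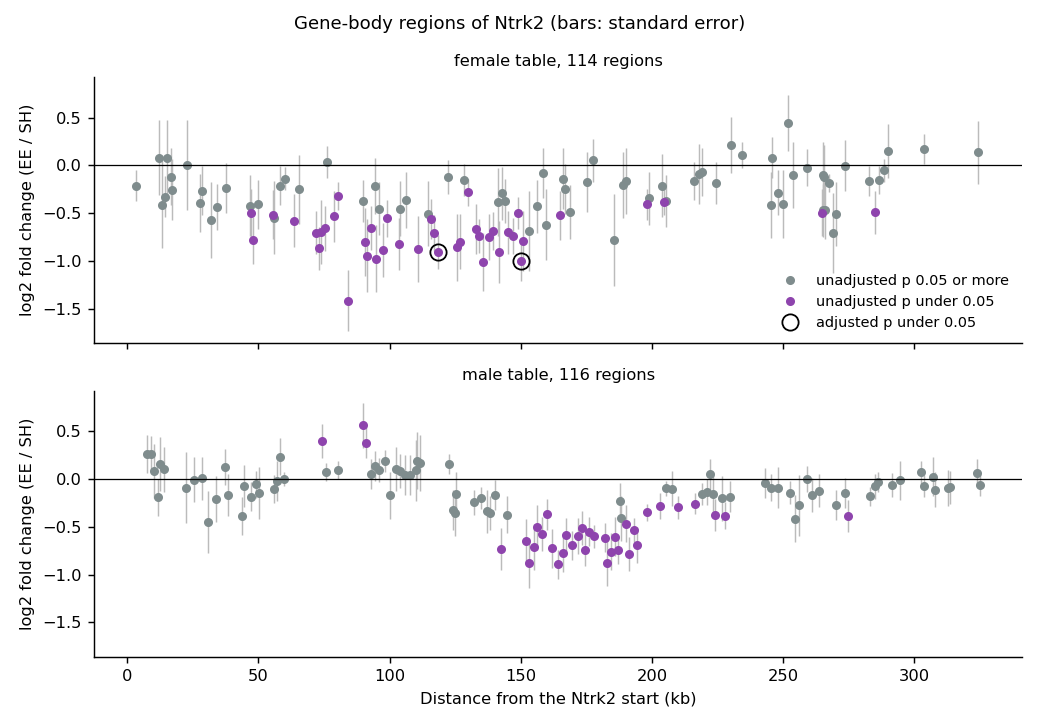
Log2 fold change of each gene-body region of Ntrk2 (points, bars are SE) against its distance from the gene's start, for the female table (114 regions) and the male table (116 regions). Purple points have an unadjusted p under 0.05 and rings an adjusted p under 0.05; the female points are lowest between 80 and 160 kb, the male points between 160 and 200 kb.

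Of the 4 male regions with the smallest p among those lower in EE, 2 lay in Ntrk2. The first, chr13:58969843-58971287, ran from 1.02 over a median of 1.45 to 1.72 CPM in EE and from 2.03 over 2.45 to 3.30 in SH. The groups did not overlap, and the log2 fold change was -0.89 ± 0.15, but the adjusted p of 0.216 missed the threshold. The other, chr13:58992863-58994084, differed by -0.74 ± 0.14 (adjusted p = 0.493). DESeq2 called both, with adjusted p = 0.00113 and 0.0228, and without SH replicate 6 edgeR called the first (adjusted p = 0.0312). The male Ntrk2 sum was -0.16 ± 0.08 (unadjusted p = 0.0611), and the interaction of sex and housing for this gene was 0.16 ± 0.13, male minus female (unadjusted p = 0.209), so the tables were not shown to differ in the gene's sum.

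The region at the Ntrk2 start did not reach an unadjusted p of 0.05 in either table, with log2 fold changes of -0.16 ± 0.10 in females and -0.02 ± 0.08 in males. Its nuclear RNA ran from 939 over a median of 985 to 1133 CPM in female EE and from 1029 over 1108 to 1259 in female SH. The log2 fold change of -0.16 ± 0.06 had an unadjusted p of 0.00977 and an adjusted p of 0.360, so it was not called. In males the RNA ran from 858 to 1164 CPM in EE and from 891 to 1029 in SH, with 0.03 ± 0.07. Other genes of the neurotrophin system were not called: the gene-body sum of Bdnf was -0.12 ± 0.10 in females and 0.06 ± 0.14 in males, that of the receptor gene Ntrk3 -0.02 and -0.04, and that of Ngfr -0.16 and -0.08, the latter from 1 region in each table.

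In the male table no gene-body region was called among 105546 (0 of all 192834 regions), and 4620 (4.38%, against 4.54% of all regions) had an unadjusted p under 0.05. DESeq2 called 5 gene-body regions, among them both Ntrk2 regions given above, and its calls over all male regions were not counted. Beside Ntrk2 the smallest p among regions lower in EE belonged to ENSMUSG00000111187, a gene given only by its identifier, at chr7:112355217-112356015 (0.966 to 1.26 CPM in EE, 1.36 to 2.40 in SH, -0.84 ± 0.15, adjusted p = 0.311), and to the actin regulator gene Cap2 (-1.02 ± 0.21, adjusted p = 0.577). Among regions higher in EE they lay in 1700029J03Rik (2.19 to 2.77 CPM in EE against 1.161 to 1.65 in SH, 0.70 ± 0.13, adjusted p = 0.311), the potassium channel gene Kcns3 (0.67), the bacterial recognition gene Pglyrp3 (0.62) and the hyaluronan receptor gene Cd44 (0.77), the last 3 with an adjusted p of 0.8. Of the 20 male gene-body regions with the smallest p, 13 were lower and 7 of the 20 lay in Ntrk2.

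Of the male gene sums 0 of 15631 were called, and 508 (3.25%) had an unadjusted p under 0.05; DESeq2 also called 0. The sums with the smallest p were Asb17 and Asb17os (the same single region, 0.79), Pglyrp3 (0.49), Poli (0.30) and Wipf1 (0.22) among those higher, and ENSMUSG00000111187 (-0.34), Fam196a (-0.30), Rps18 (-0.75), Got1 (-0.20) and Nxf1 (-0.35) among those lower, each at an adjusted p of 1. The regions with the highest male level, in Gm33838 and Rbpj as in females, differed by 0.03 ± 0.13 and -0.05 ± 0.05.

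Female calls were compared with the male values at the same place. Of the female gene-body regions, 85675 (89.6%) overlapped a male region of any kind by at least 1 base, and 55539 male ones (52.6%) overlapped a female region. Of the 25 called, 23 had an overlapping male region, of which 11 had the same sign, and the male log2 fold changes lay between -0.27 and 0.27. An unadjusted p under 0.05 was found in 2 of them, in the opposite direction: Hecw2 (-0.27, unadjusted p = 0.00482) and Homer1 (0.27, unadjusted p = 0.0199). The male regions matched to the calls in Homer1, Bhlhe40, Galntl6, Wipf3 with Scrn1, Ntrk2 and Lncpint were at least 3000 bases wide. They were therefore not gene-body regions, and the one at Bhlhe40 also covered the gene's start. Of all female gene-body regions, 20.3% had their longest overlap with such a wide male region. Over all 85658 overlapping pairs with a value in both, 52.6% had the same sign, and the correlation across regions, which share libraries and are not replicates, was 0.06 (Pearson) and 0.06 (Spearman).

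Of the 16 called female gene sums 14 had a male value, and 10 had the same sign, 6 of 7 among those that fell in females. The male log2 fold changes ran from -0.155 to 0.108 and 0 had an unadjusted p under 0.05. Cmip was at -0.01 and Mical2 at -0.01 in males, and Lncpint at -0.10 from 2 regions. The male region in ENSMUSG00000111187 given above lies just past the end of Mical2 (chr7:112355194), in a gene that overlaps that end. Both called female regions of Lncpint overlapped male regions at least 3000 bases wide. The interaction of sex and housing was called for 0 of 13098 genes with regions in both tables (edgeR), with 926 (7.07%) at an unadjusted p under 0.05 and 20 called by DESeq2. Gulp1 was among the 5 smallest p (-0.78 ± 0.16, male minus female, adjusted p = 0.3525), together with Gm20642, 9330158H04Rik, Gm29674 and Gm36500. Across 13091 genes, which are not replicates, the female and male log2 fold changes correlated with r = 0.12 and rho = 0.14, and across the 906 genes with at least 20 regions in each table with r = 0.18 and rho = 0.19.

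**Figure D4:**
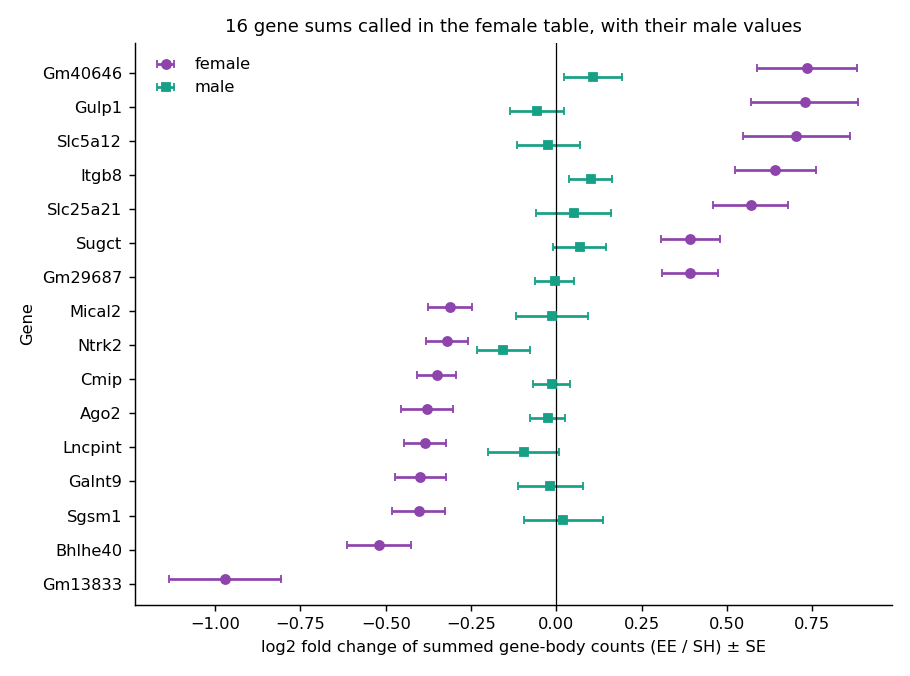
Log2 fold change (EE over SH) ± SE of the 16 gene sums called in the female table, with the male value of the same gene where it had one. The male points lie between -0.155 and 0.108, nearer to 0 than each female point; Bhlhe40 and Gm13833 have no male point.

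The host genes' nuclear RNA was compared as well. Of 10443 female hosts with a tested RNA, 0 were called (0 of all 14587 genes) and 1007 had an unadjusted p under 0.05 (8.67% of all genes did). DESeq2 called 113 of the hosts, and its calls over all genes were not counted. Of 10545 male hosts 4 were called (0.0411% of all 14597 genes) and 934 had an unadjusted p under 0.05 (8.03% of all genes did). Among the 13 called female gene sums with an RNA value, 8 had an RNA log2 fold change of the same sign, and 2 had an unadjusted p under 0.05: Ntrk2 and Mical2 (-0.28 ± 0.09, unadjusted p = 0.00761, adjusted p = 0.325). Genes whose RNA differed in males in earlier results of these data had gene-body sums that were not called. The male values were -0.14 for the guidance receptor gene Robo3, -0.06 for the clock gene Arntl, 0.06 for Lypd1 and -0.01 for Trps1. The female values of Robo3, Trps1 and Arntl were 0.13, 0.01 and -0.01. Across genes the gene-body and RNA log2 fold changes correlated with r = -0.06 and rho = -0.07 in females (10434 genes) and r = 0.01 and rho = 0.04 in males (10545 genes). Across genes with at least 20 gene-body regions the values were r = 0.14 and rho = 0.15 in females (1082 genes) and r = 0.06 and rho = 0.11 in males (1209 genes). Genes are not replicates, and these values are a description.

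Gene lists were described by the sign of the gene-body sums; the lists were drawn up with earlier results of these data known. Over all female gene sums the median log2 fold change was -0.01, and 5.22% were higher and 4.8% lower at an unadjusted p under 0.05. Of 12 immediate early genes with gene-body regions, which neurons switch on within minutes of activity, 11 had lower sums in EE and 6 were lower at that p, with a median of -0.41, but none was called. Btg2 stood at 1.81, 1.47 and 1.55 CPM in EE and 2.5, 2.91 and 3.62 in SH (-0.90 ± 0.27, adjusted p = 0.180). Npas4, a neuronal transcription factor of this kind, stood at 11.4, 10.8 and 11.3 CPM in EE and 12.6, 14.6 and 25.6 in SH (-0.66 ± 0.22, adjusted p = 0.320), so that SH replicate 3 alone was far above. These genes are short, with a median span of 7.04 kb, and held 28 regions in all. Of 8 cytoskeletal and housekeeping genes, also short with a median span of 5.13 kb, 6 had lower sums in EE and 2 were lower at that p, with a median of -0.22 and none called. In males 5 of the listed immediate early genes had a value, 2 higher and 3 lower.

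Of 20 circadian clock genes 18 had lower female sums, with a median of -0.12, and Bhlhe40 was the only one called. Of 26 genes of the excitatory postsynaptic density 17 had lower sums and 9 were lower at an unadjusted p under 0.05, with a median of -0.10. Presynaptic vesicle genes had 21 of 30 lower (median -0.06) and voltage-gated channel genes 22 of 39 (median -0.06). Axon guidance and adhesion genes went the other way, with 40 of 49 higher, 14 higher and 1 lower at that p, and a median of 0.11. Their median span was 452 kb. It was 180 kb for the postsynaptic density, 136 kb for presynaptic, 196 kb for channel and 32.7 kb for clock genes. Whether span bears on these directions was not tested. In males 23 of 26 postsynaptic density genes and 24 of 30 presynaptic genes were lower, with medians of -0.05 and -0.04 beside a median of -0.001 over all genes, and 28 of 49 axon guidance genes were higher; none of the listed genes was called, and at most 1 of each of these lists had an unadjusted p under 0.05.

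The summed gene-body levels of 3 marker lists did not overlap between the female groups, although none of the listed marker genes was called. With 3 libraries against 3 the smallest possible exact two-sided permutation p is 0.1, and no test was run on these sums. The summed gene-body level of the 9 of 19 oligodendrocyte genes that hold such regions was 495 to 511 CPM in EE and 556 to 559 in SH, mostly through the myelin gene Mbp (369, 369 and 357 CPM against 409, 434 and 432, -0.22 ± 0.06, adjusted p = 0.120), although 6 of the 9 genes were higher. In the female RNA the summed oligodendrocyte markers overlapped, at 5.67 to 9.54 CPM per kb in EE and 5.33 to 16.1 in SH. The gene-body sum of 14 of 21 genes of GABAergic interneurons was 273 to 299 CPM in EE and 249 to 252 in SH, with 11 of 14 genes higher, among them Adarb2 (0.41, adjusted p = 0.0866) and Erbb4 (0.40, adjusted p = 0.116), and that of 14 genes of deep-layer excitatory neurons was 962 to 1031 and 880 to 961. The deep-layer groups nearly touched, at 961.9 CPM in the lowest EE and 960.7 in the highest SH library. In the female RNA the summed interneuron markers overlapped, at 16.8 to 23.5 CPM per kb in EE and 14.5 to 22.5 in SH. The summed deep-layer markers overlapped there too, at 13.2 to 15.3 and 12.6 to 15.1 CPM per kb. The gene-body sums of astrocyte genes overlapped, at 1043 to 1127 and 998 to 1061 CPM. So did the sums of excitatory, upper-layer and striatal projection neuron, microglia, oligodendrocyte precursor and vascular genes. In such bulk libraries fewer nuclei of a type and less accessible chromatin per nucleus cannot be told apart, and the part of these sums in the female calls was not tested. In the male table the sums of all these lists overlapped between the groups.

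**Figure D5:**
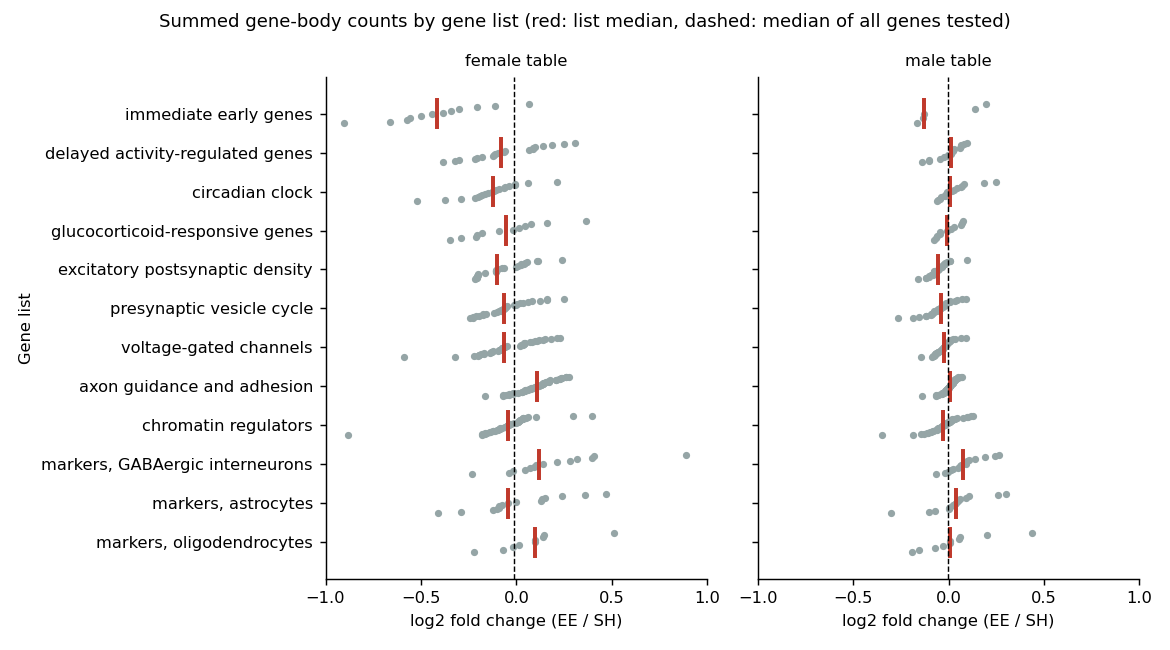
Log2 fold change of summed gene-body counts for each gene of 12 lists (points) in the female and the male table, with the list median in red and the median of all genes tested as a dashed line. Female immediate early genes lie furthest below the dashed line (median -0.41) and female interneuron markers and axon guidance genes above it (medians 0.12 and 0.11).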

How the data were processed

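ATAC regions and nuclear RNA genes were deposited by the authors as raw counts per library. The submitters' processing notes name STAR 2.5.4, SAMtools 1.3.1, MACS2 2.1.1, DiffBind 3.2.2, DESeq2 1.16.1, edgeR, bedtools and mm10; which step each served, and how regions were merged and counted, is not given in the sources used here. Whether region starts are counted from 0 or 1 is not given either, so coordinates are as deposited. A symbol was found for 53274 of 53379 gene identifiers of the RNA files.

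Gene spans and strands came from the RNA tables, so exons and introns were not told apart. Each ATAC table was fitted whole with edgeR 4.0.16 in R 4.3.3 (quasi-likelihood test, robust, TMM scaling, filterByExpr); p-values were Benjamini-Hochberg adjusted over the whole table and called under 0.05. The filter removed 73 female and 25 male gene-body regions. Gene sums used the scaling of the whole table, and a region in several gene spans counted in each. Library shares were compared by exact two-sided permutation with SciPy 1.17.1. DESeq2 1.42.0 and limma 3.58.1 were alternatives. The scripts were tested on simulated counts.

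Named regions and genes were, per table, up to 8 called in each direction by p (4 regions or 5 genes by smallest p where fewer were called), the 5 regions of highest level, the 10 genes with most regions, and up to 3 genes per list by p. The criteria for gene-body regions and the gene lists were chosen with earlier results of these data known. No library was a duplicate of another. A result that needs a withheld item is not reported here.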

Additional observations from a re-analysis of the deposited data

Results flagged for a closer look

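In 74 groups of 4 to 10 libraries that were checked, 7 had a library whose gap to its nearest neighbour was large for the group's range (Dixon's 95% limit); chance alone gives about 1 in 20. In the male gene-body sum of Ntrk2, SH replicate 6 was lowest at 250.9 CPM, with the next at 321.4. In the female RNA of Ntrk2, EE replicate 1 was highest at 1133 CPM, with the next at 1009. In the male region of 1700029J03Rik, SH replicate 6 was lowest at 1.161 CPM, with the next at 1.442. In the male region of Cmss1, EE replicate 5 was highest at 79.44 CPM, with the next at 52.13. In the male sums of Asb17 and Asb17os, which are the same region, EE replicate 2 was lowest at 0.9465 CPM, with the next at 1.328. In the male sum of Rps18, EE replicate 1 was lowest at 0.1827 CPM, with the next at 0.3704.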

How the results depend on the processing

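The female region count was 25, and 44 with DESeq2 and 13 with a replicate block; the gene-sum count was 16, and 27 with limma voom and cyclic loess and 73 with DESeq2. DESeq2 gave no adjusted p for 60699 of 95510 female regions and 9982 of 14711 gene sums. The bin count was 39, and 9 with cyclic loess. The male region count was 0, and 5 with DESeq2; the interaction count was 0, and 20 with DESeq2. Called female host RNAs were 0, and 147 without a filter on low counts, 89 with a replicate block and 113 with DESeq2; the male count of 4 became 123, 2 and 46. For regions and host RNAs, calls over all regions or all genes were not counted in these alternative settings. The cause of these differences was not tested. Leaving out 1 library gave 8 to 125 female regions, 0 to 177 gene sums, 0 to 249 bins, 0 to 77 host RNAs, 0 to 2 male regions, 0 to 9 male host RNAs and 0 to 2 interactions. Beyond those refits, 18 of the 25 regions and 12 of the 16 sums stayed called in every other setting that gave them an adjusted p, apart from the block, which kept 12 of each. Whether the replicate number pairs EE and SH libraries was not settled, and the main fits did not pair them. Deviations of same-numbered libraries from their group mean correlated from 0.0362 to 0.3059 in female and -0.0299 to 0.2264 in male RNA. Differently numbered ones ran from -0.2758 to 0.3437 and from -0.2081 to 0.1443. In ATAC the same-numbered ones ran from -0.069 to 0.0613 in females and -0.1057 to 0.1745 in males. Differently numbered ones there ran from -0.1299 to 0.1089 and from -0.3324 to 0.3334.

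The female share of counts, -0.0652 points, was 0.132 with regions more than 5 kb from starts and ran from -0.567 to 0.254 without 1 library; the female log2 ratio ran from -0.00738 to 0.0820. Values near 0 changed sign. In females, Lhx2 became 0.0196 beyond 5 kb; Arntl 0.00394, 0.00538 and 0.00882 with scaling by the summed table, library totals and cyclic loess; the Gm33838 region 0.00218, 0.0117, 0.0316 and 0.00272 with DESeq2's size factors, totals, loess and DESeq2; and the Gm44511 and Rbpj regions 0.0557 and 0.0405 with loess. In males, Trps1 became 0.00476, 0.00979 and 0.0147 with totals, voom and loess, the Rbpj and Phyhipl regions 0.00498 and 0.0144 with loess, and the Cmss1 region 0.00264 with the block. Without 1 library, log2 fold changes ran in females from -0.0537 to 0.0860 (Arntl), -0.0577 to 0.0929 (Trps1), -0.381 to 0.0964 (Chl1), -0.372 to 0.214 (Gm33838), -0.140 to 0.0828 (Gm44511) and -0.0938 to 0.0332 (Rbpj), and in males from -0.154 to 0.326 (Lypd1), -0.0300 to 0.0416 (Trps1), -0.236 to 0.0156 (Cmss1), -0.0415 to 0.111 (Gm33838) and -0.0288 to 0.0607 (Ntrk2 RNA).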
